A study of Mus musculus with 4 samples.

Results

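The Schlafen genes are a mouse gene family that clusters on chromosome 11, and 7 of them were examined here: Slfn1, Slfn2, Slfn3, Slfn4, Slfn5, Slfn8 and Slfn9. They were chosen by name, as all probes that carry a member's symbol on the array, which gave 9 of the 39429 probes and 7 of the 31653 genes. RNA came from C57BL/6 bone marrow. PreproB cells, precursors at the start of the B lineage, had been sorted by the absence of lineage markers, BP1 and CD24 and the presence of B220 and CD43. Each group had 2 samples, each read on its own 1-colour Agilent array.

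The EnhDel group had both copies of the Cebpa +37 kb enhancer flanked by loxP sites and carried Mx1-Cre, a recombinase under an interferon-inducible promoter, and is labelled as without the enhancer. Both EnhDel samples are labelled as males of 24 weeks. The control group had the same floxed enhancer and no Cre, and is labelled as having the enhancer. Control replicate 1 is labelled as a female of 26 weeks and control replicate 2 as a male of 24 weeks. All mice had received pIpC, an artificial double-stranded RNA and strong inducer of interferon, in 3 doses that ended 5 weeks before the cells were isolated. Mx1-Cre acts in many cell types that respond to interferon, not in blood cells alone, and the effect of Cre itself and that of the lost enhancer cannot be told apart.

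Schlafen proteins share an N-terminal region that binds nucleic acids and fall into a short form (Slfn1 and Slfn2), an intermediate form (Slfn3 and Slfn4) and a long form with a helicase-like C-terminal region (Slfn5, Slfn8 and Slfn9). The genes were found through their regulation during thymocyte development and T-cell activation, and type I interferon induces several of them. Slfn2 is known for holding T cells and monocytes in quiescence, the resting state from which they divide on activation.

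The probes that the results turn on are given 5′ to 3′ because members of the family resemble each other and a probe can only be read as far as its sequence is its own. Capitals mark the only stretch of at least 20 bases with at least 90% identity between probes of different members. It is 35 bases long with 33 matches, and it joins a Slfn8 probe to a Slfn9 probe. The probes were compared with each other and not with the transcripts of other members, so a match elsewhere in those transcripts was not looked for.
Slfn2 A_51_P423578: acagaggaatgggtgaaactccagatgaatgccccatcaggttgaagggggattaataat
Slfn3 A_51_P228768: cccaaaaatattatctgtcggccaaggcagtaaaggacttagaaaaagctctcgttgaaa
Slfn4 A_51_P183812: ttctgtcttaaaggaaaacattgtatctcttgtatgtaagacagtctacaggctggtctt
Slfn5 A_66_P128525: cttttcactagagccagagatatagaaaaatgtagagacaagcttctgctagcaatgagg
Slfn8 A_55_P2117656: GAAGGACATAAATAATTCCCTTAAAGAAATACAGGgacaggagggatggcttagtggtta
Slfn8 A_66_P105585: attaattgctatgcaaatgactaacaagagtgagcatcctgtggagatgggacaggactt
Slfn9 A_55_P2110537: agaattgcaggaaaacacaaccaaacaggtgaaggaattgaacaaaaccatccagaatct
Slfn9 A_55_P2117649: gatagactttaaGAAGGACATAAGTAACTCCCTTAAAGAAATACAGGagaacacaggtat
The last 16 bases of the Slfn8 probe A_55_P2117656 occurred exactly in 3 of 32851 RefSeq promoter windows and with at most 1 mismatch in 26. The ends of the other member probes occurred with at most 1 mismatch in 0 to 2 windows. By these counts that Slfn8 probe had the most matches in promoter windows. Among the other probes of the array, the first 16 bases of the Slfn9 probe A_55_P2110537 occurred exactly in 1. Its last 16 bases, and those of the Slfn8 probe A_55_P2117656, each occurred with at most 1 mismatch in 1 other probe.

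Promoter sequences are shown for the 3 long forms and for Slfn2, because an interferon-stimulated response element (ISRE) is the site through which type I interferon acts on a gene. The 250 bases before each start site are those of RefSeq, build GRCm38.p6, and the search covered windows of 300 bases that run past the start site. Capitals mark matches, on either strand, to the ISRE core letters GAAA repeated after any 2 bases. No match overlaps another.
Slfn2 promoter chr11:83064862-83065111 (plus strand): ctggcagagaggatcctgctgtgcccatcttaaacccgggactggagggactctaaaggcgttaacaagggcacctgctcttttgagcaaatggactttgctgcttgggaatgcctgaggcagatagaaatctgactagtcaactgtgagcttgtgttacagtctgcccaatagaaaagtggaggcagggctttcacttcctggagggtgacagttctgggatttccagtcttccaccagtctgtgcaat
Slfn5 promoter chr11:82951852-82952101 (plus strand): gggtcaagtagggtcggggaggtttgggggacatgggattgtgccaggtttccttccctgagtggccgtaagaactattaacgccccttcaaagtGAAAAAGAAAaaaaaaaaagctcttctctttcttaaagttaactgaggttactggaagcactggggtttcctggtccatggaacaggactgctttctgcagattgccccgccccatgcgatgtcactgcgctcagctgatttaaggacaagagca
Slfn8 promoter chr11:83020811-83021060 (minus strand): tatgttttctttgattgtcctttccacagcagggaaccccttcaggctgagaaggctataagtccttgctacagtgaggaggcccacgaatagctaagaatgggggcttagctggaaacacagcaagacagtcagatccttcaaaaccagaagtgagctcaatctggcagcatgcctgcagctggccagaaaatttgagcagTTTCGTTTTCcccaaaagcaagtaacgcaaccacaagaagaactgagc
Slfn9 promoter chr11:82991831-82992080 (minus strand): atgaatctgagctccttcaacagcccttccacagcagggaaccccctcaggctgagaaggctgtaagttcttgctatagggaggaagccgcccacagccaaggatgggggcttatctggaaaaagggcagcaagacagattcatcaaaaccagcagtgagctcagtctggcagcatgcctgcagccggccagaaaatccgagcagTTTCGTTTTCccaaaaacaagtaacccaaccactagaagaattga
The match begins at -155 from the start site in Slfn5, at -48 in Slfn8 and at -45 in Slfn9. A second RefSeq start site of Slfn8 places the same match at -136. The windows of Slfn1, Slfn2, Slfn3 and Slfn4 hold no match, and 3.44% of all 32851 windows of the same length hold at least 1. The GAS letters TTCNNNGAA, which are bound after interferon gamma, occur in 8.3% of windows and in none of these. A match is a string of letters and not evidence of binding.

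Some facts of the whole set of arrays bear on what follows. Between 23486 and 25575 probes per array (59.6% to 64.9%) were well above background, no spot was saturated, and the lowest signal well above background was 12.2 to 14.4. The number of arrays limits the precision. Per the file headers, the 4 arrays share 1 slide and 1 scan. Cebpa, the gene next to the deleted enhancer, gave signals of 125 and 287 on the EnhDel arrays and of 1271 and 927 on the control arrays (log2 difference -2.41 ± 0.44 SE, adjusted p = 0.238 in limma), although its probe does not read the enhancer itself. EnhDel replicate 2, labelled male, had Xist at 597 beside the Y-linked Ddx3y at 1560. Control replicate 1, labelled female, had no Xist signal above background and carried Ddx3y at 3116, so these 2 libraries went against their sex labels. Values without EnhDel replicate 2 stand beside the results. Without control replicate 1 the log2 differences given below were 0.81 for Slfn2, -1.06 for Slfn3, 0.69 for Slfn5, 0.39 for Slfn8 and 0.44 for Slfn9. These rest on control replicate 2 as the only control array. The EnhDel arrays also lay further apart than the control arrays, with SDs of the log2 differences over genes of 0.61 and 0.33. The labels of single samples do not say that each came from its own animal, and p-values reflect the spread between these samples, which may be technical.

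Of the 7 genes, 5 could be tested, because in at least 1 group each array read them well above background. Slfn2, Slfn5, Slfn8 and Slfn9 were higher in EnhDel cells (4 of 5, where 59.8% of all genes were), and Slfn3 was lower except under unrepaired normexp. The 5 had a median log2 difference of 0.50, beside a median of 0.07 over all 19387 genes tested. At an adjusted p of 0.05 in limma 0 of the 5 were called, as were 0% of all genes, while 2171 of all genes had an unadjusted p under 0.05. At an unadjusted p under 0.05 Slfn2 and Slfn5 were higher (7.23% of all genes were) and Slfn3 was lower (3.97% were). The groups did not overlap, with EnhDel higher, in 3 of 5 (28.6% of all genes), and with EnhDel lower in 1 of 5 (15.5%). With so few members these counts are descriptions. An exact permutation test of 2 samples against 2 cannot give a p below 0.333, and none was run. In bulk samples, fewer cells of a type and less RNA per cell cannot be told apart.

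**Figure D1:**
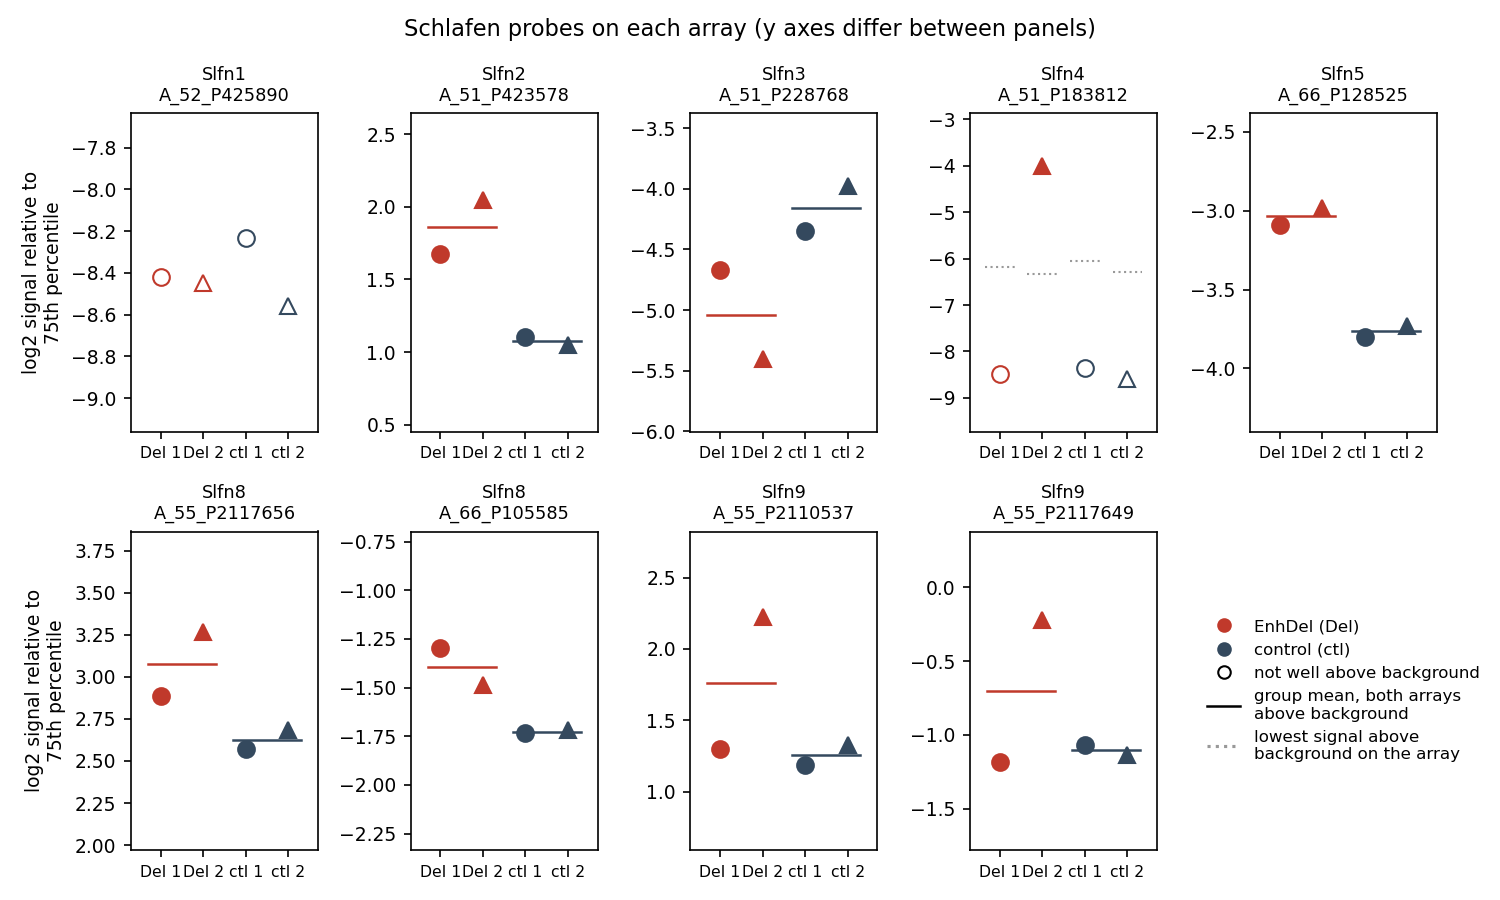
Normalized log2 signal (log2 of the processed signal minus the array's 75th percentile) of each of the 9 Schlafen probes on EnhDel replicates 1 and 2 (red) and control replicates 1 and 2 (dark blue), with open symbols where the probe was not well above background and a line at the mean of a group measured on both arrays. Slfn2 and Slfn5 separate the groups, both Slfn9 probes stand high on EnhDel replicate 2 alone, and Slfn4 was measured on EnhDel replicate 2 alone.

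Slfn2, the short form that maintains quiescence, had the largest positive difference of the tested members. Its probe (mm9 chr11:82883791-82883850, plus strand) gave signals of 2889 and 4040 on the EnhDel arrays and of 2058 and 2221 on the control arrays. Both EnhDel values lay above both control values. The normalized log2 means were 1.86 ± 0.26 in EnhDel cells and 1.08 ± 0.04 in control cells (SD, n = 2 each). The log2 difference was 0.78 ± 0.19 (SE), or 1.72-fold with a 95% interval of 1.21 to 2.46, with an unadjusted p of 0.0124 and an adjusted p of 0.32 in limma. That difference was larger than the spread within either group, and 5.8% of tested genes had a larger one. Without EnhDel replicate 1 it was 0.97. Without EnhDel replicate 2, which went against its label, it was 0.60.

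Slfn1, the other short form, whose forced expression slows thymocyte growth, was not well above background on any array. Its probe (mm9 chr11:82935656-82935715, plus strand) read 2.64 and 2.80 on the EnhDel arrays and 3.18 and 2.84 on the control arrays, all under the lowest signal that counts as measured. No difference can be given, and at this signal a level below 12.2 was not detectable.

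Slfn3, an intermediate form studied in T cells and in rodent gut epithelium, was the only tested member that was lower in EnhDel cells, and its sign flipped with unrepaired normexp background correction (0.69). The probe (mm9 chr11:83028431-83028490, plus strand) gave 35.4 and 23.1 on the EnhDel arrays and 47.2 and 68.1 on the control arrays. The EnhDel arrays were the 2 lowest, on signals only a few times the detection limit. The log2 means were -5.04 ± 0.52 in EnhDel cells and -4.16 ± 0.26 in control cells (SD, n = 2 each). The log2 difference was -0.88 ± 0.31 (SE), with a 95% interval of -1.71 to -0.04, an unadjusted p of 0.0432 and an adjusted p of 0.434 in limma. This size depended on the arrays and on the background step. It was -1.24 without EnhDel replicate 1 and -0.51 without EnhDel replicate 2. With normexp it was -0.32 once 6 spots of EnhDel replicate 1 with a very high local background had been repaired.

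Slfn4, the other intermediate form, is known from activated macrophages and other myeloid cells. Its probe (mm9 chr11:83002974-83003033, plus strand) read 2.53 and 60.9 on the EnhDel arrays and 2.91 and 2.79 on the control arrays. It was well above background on EnhDel replicate 2 and on no other array. There its normalized log2 signal was -4.01, which is 4.14-fold above the highest detection limit of the other arrays (-6.05). The EnhDel mean itself lay under the control arrays' detection limit, so no fold is given between the groups. Signals of this kind were common on that array: 1109 genes were above background there alone, and 34 of them were at least as high as Slfn4. The corresponding counts were 352 genes on EnhDel replicate 1, 74 on control replicate 1 and 181 on control replicate 2.

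Slfn5, a long form that responds to interferon, was read at low signals and had the closest EnhDel replicates of the tested members. Its probe (mm9 chr11:82774907-82774966, plus strand) gave 106 and 124 on the EnhDel arrays and 68.8 and 80.9 on the control arrays. The groups did not overlap. The log2 means were -3.04 ± 0.08 in EnhDel cells and -3.76 ± 0.05 in control cells (SD, n = 2 each). The log2 difference was 0.73 ± 0.15 (SE), or 1.66-fold with a 95% interval of 1.25 to 2.20, with an unadjusted p of 0.00677 and an adjusted p of 0.278 in limma. Of all tested genes 6.68% had a larger difference. It was 0.78 without EnhDel replicate 1 and 0.67 without EnhDel replicate 2, so both EnhDel arrays carried it. Over other settings it ran from 0.40 with the authors' deposited values to 1.12 with unrepaired normexp, and it was 0.47 with repaired normexp.

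Slfn8, a long form that lies among the others in the cluster, was read by a pair of probes. The brighter one (mm9 chr11:82815804-82815863, minus strand) shares its capital stretch with a Slfn9 probe. Its last 16 bases matched 26 promoter windows with at most 1 mismatch, so little of it may be its own. It gave 6690 and 9400 on the EnhDel arrays and 5696 and 6887 on the control arrays. These signals overlapped, and after scaling to the 75th percentile they no longer did. The log2 difference was 0.45 ± 0.20 (SE, n = 2 each), with a 95% interval of -0.08 to 0.98 and an adjusted p of 0.493 in limma. It was 0.26 without EnhDel replicate 2 and 0.64 without EnhDel replicate 1. With unrepaired normexp it was 0.18 and the groups overlapped.

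The other Slfn8 probe (mm9 chr11:82830985-82831044, minus strand) holds no such stretch shared with a probe of another member. It gave 368 and 349 on the EnhDel arrays and 288 and 325 on the control arrays, so the groups did not overlap (with EnhDel higher in 28.3% of all tested probes), and here EnhDel replicate 1 was the higher of the pair. In the limma fit over all 24277 probes its log2 difference was 0.33 ± 0.16 (SE, n = 2 each; adjusted p = 0.528). The groups overlapped under median scaling, where the difference was 0.13.

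Slfn9, a long form, differed more between the EnhDel arrays than between the groups. Its brighter probe (mm9 chr11:82793812-82793871, minus strand) holds no such stretch shared with a probe of another member. It gave 2221 and 4569 on the EnhDel arrays and 2188 and 2682 on the control arrays. EnhDel replicate 1 lay between the control values and EnhDel replicate 2 above them. The log2 difference was 0.50 ± 0.35 (SE, n = 2 each), with a 95% interval of -0.43 to 1.44 and an adjusted p of 0.651 in limma. Against the control mean, EnhDel replicate 1 stood at 0.04 and EnhDel replicate 2 at 0.97. A gap between the EnhDel arrays wider than this was found in 9.71% of tested genes. The difference was 0.97 when EnhDel replicate 1 was left out, and 0.04 when EnhDel replicate 2 was left out.

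The other Slfn9 probe (mm9 chr11:82793914-82793973, minus strand), with the stretch shared with Slfn8, also stood highest on EnhDel replicate 2. It gave 399 and 839 on the EnhDel arrays and 458 and 488 on the control arrays. EnhDel replicate 1 lay below both control values and EnhDel replicate 2 above both. The log2 difference was 0.40 ± 0.35 (SE, n = 2 each; adjusted p = 0.724 in limma over all probes), from -0.08 on EnhDel replicate 1 and 0.88 on EnhDel replicate 2 against the control mean. The Slfn8 probe with which it shares the stretch did not show this, with both EnhDel arrays above both control arrays after scaling.

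**Figure D2:**
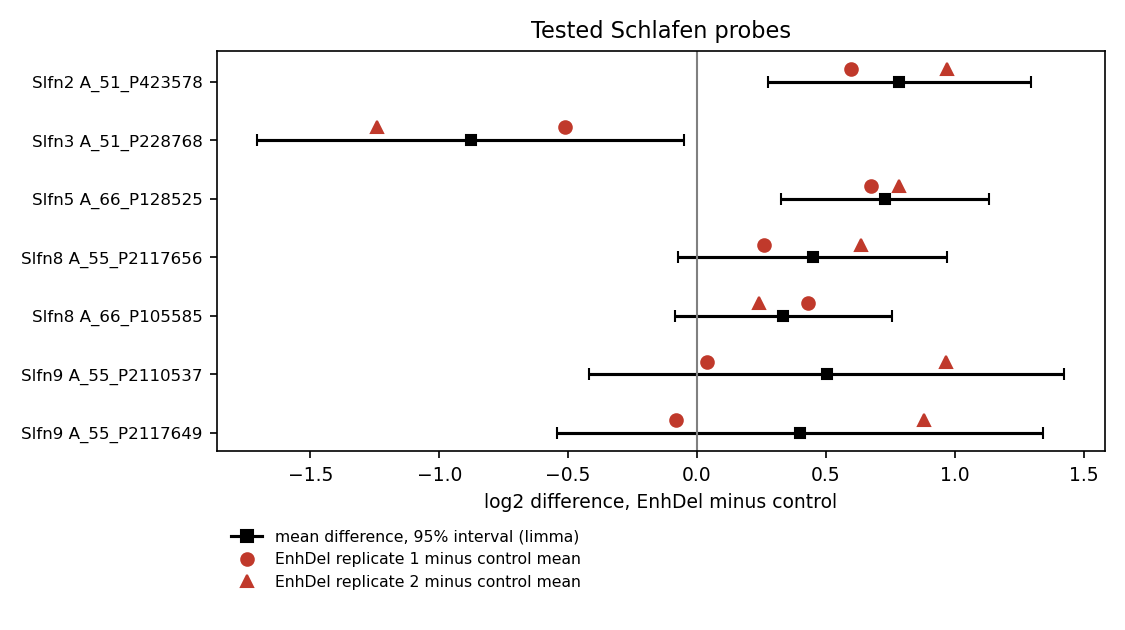
Log2 difference, EnhDel minus control, of each tested Schlafen probe (squares, with the 95% interval of limma's fit over all probes), with EnhDel replicates 1 (circles) and 2 (triangles) each set against the control mean. Intervals of Slfn2, Slfn3 and Slfn5 lie off 0 before adjustment; the Slfn9 circles stand at 0.04 and -0.08 and its triangles at 0.97 and 0.88, and the Slfn3 value is the one that turned positive with unrepaired normexp.

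The positions of the probes in exons or UTRs were not worked out, because no mm9 annotation was used here. The family's neighbours on chromosome 11 were read for comparison. Of 13 neighbouring genes, among them the untested Schlafen gene Slfn14, 8 were tested, with 6 higher (59.8% of all genes were) and 2 lower. None had an unadjusted p under 0.05 in limma, where 7.23% of all genes were higher and 3.97% lower. Their median log2 difference was 0.13, from -0.20 to 0.50. Cct6b, a chaperonin subunit, had the highest of these at 0.50 ± 0.36 (SE), and Rad51d, a DNA repair gene, stood at 0.21 ± 0.15.

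In the authors' deposited table, which gives log2 values to 1 decimal, the tested members differed in the same direction. Slfn2 is listed there at 11.4 and 11.7 for the EnhDel samples and at 10.8 and 10.8 for the control samples. The authors' deposited table has Slfn3 at 6.4 and 5.9 for the EnhDel samples and at 6.6 and 6.8 for the control samples. It has Slfn5 at 7.4 and 7.3 for the EnhDel samples and at 6.9 and 7 for the control samples. Slfn4 in the authors' deposited table stands at 5.3 and 6.7 for the EnhDel samples and at 5.2 and 5.2 for the control samples, so EnhDel replicate 2 is the high one there too. Per the authors' deposited table Slfn9 is at 10 and 11 for the EnhDel samples and at 10 and 10.1 for the control samples. For Slfn8 and Slfn9 that table has 1 row a gene, and its values lie near the mean log2 signal of the gene's probes. The authors' value of Slfn8 on EnhDel replicate 2 is 11, where its probes averaged 10.9.

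The Schlafen genes were then set beside other genes that interferon induces. The list of 39 interferon-stimulated genes holds no Schlafen gene and was drawn up with earlier results of these arrays known. Of its 38 tested members 37 were higher and 1 was lower in EnhDel cells, with a median log2 difference of 0.71. The groups did not overlap, with EnhDel higher, in 32 of 38 (28.6% of all genes), and 19 had an unadjusted p under 0.05 in limma, all of them higher (7.23% of all genes). None passed the adjusted threshold. Set against the control mean array by array, the list's median was 0.49 for EnhDel replicate 1 and 0.97 for EnhDel replicate 2. That of the 5 tested Schlafen genes was 0.26 for EnhDel replicate 1 and 0.78 for EnhDel replicate 2.

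The members with the smallest p were Oas and Oas-like genes and an ADP-ribosyltransferase. Oas1a, which makes the messenger that activates RNase L, gave 2168 and 5496 on the EnhDel arrays and 555 and 1169 on the control arrays. Its log2 difference was 2.21 ± 0.54 (SE; adjusted p = 0.32 in limma). Oasl1, a related gene, gave 7308 and 12700 on the EnhDel arrays and 2083 and 3783 on the control arrays, a difference of 1.89 ± 0.36 (adjusted p = 0.252 in limma). Both were highest on EnhDel replicate 2 and lowest on control replicate 1. Oasl2 differed by 1.29 ± 0.30 and Parp14 by 0.57 ± 0.15.

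EnhDel replicate 2 was above EnhDel replicate 1 in 34 of the 38 listed genes (89.5%) and in 4 of the 5 Schlafen genes, against 48.7% of all genes tested. Control replicate 2 was above control replicate 1 in 33 of the 38 and in 4 of the 5, against 42.4% of all genes tested. Samples of the same group thus differed in these genes too.

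**Figure D3:**
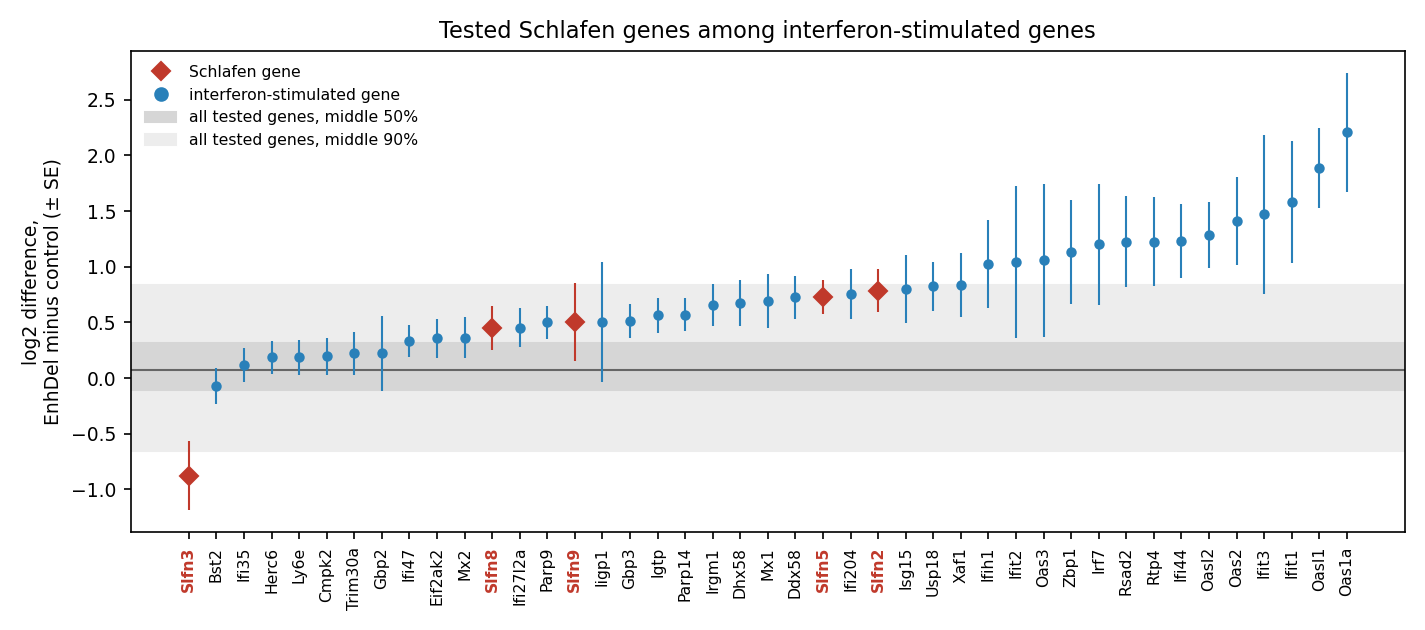
Log2 difference, EnhDel minus control, with its SE for the 5 tested Schlafen genes (diamonds) among the 38 tested interferon-stimulated genes (circles), in order of size, over bands that hold the middle of all tested genes around their median of 0.07. Slfn2, Slfn5, Slfn8 and Slfn9 lie between 0.45 and 0.78, within the range of the list, and Slfn3 lies at -0.88, below every listed gene except under unrepaired normexp, where it was positive.

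Genes of interferon signalling, from ligands to feedback inhibitors, were listed separately. Of 19 genes 16 were tested, 12 were higher (59.8% of all genes were) and 4 lower, and the median log2 difference was 0.09. At an unadjusted p under 0.05 in limma 3 were higher (7.23% of all genes were) and 0 were lower (3.97%). Socs3 at 1.17 ± 0.16 (SE; adjusted p = 0.195 in limma) and Socs1 at 0.93 ± 0.24 (SE; adjusted p = 0.333 in limma), which are feedback inhibitors of cytokine receptors, were among those with an unadjusted p under 0.05. Socs3 gave 3249 and 3727 on the EnhDel arrays and 1673 and 1661 on the control arrays, with no overlap. Among the ligands, Ifna4 and Ifng were not above background on any array. Ifnb1 was above background on EnhDel replicate 2 at 61.9 and on control replicate 2 at 20.7, and on neither other array.

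Because Slfn2 is tied to quiescence, genes of quiescence and of the cell cycle were listed as well. Of the 15 quiescence genes, all tested, 8 were higher and 7 lower, with a median log2 difference of 0.03. Cdkn1c, a cyclin-dependent kinase inhibitor, gave 76.4 and 105 on the EnhDel arrays and 22.6 and 37.3 on the control arrays, a difference of 1.74 ± 0.27 (SE; adjusted p = 0.205 in limma). Klf4, a transcription factor that restrains division and is also high in monocytes, gave 758 and 626 on the EnhDel arrays and 4025 and 3542 on the control arrays. Its difference was -2.35 ± 0.23 (adjusted p = 0.153 in limma), and the groups overlapped for neither gene.

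Of the 25 cell cycle genes 24 were lower, all without overlap (15.5% of all genes), and 9 of them had an unadjusted p under 0.05 in limma (3.97% of all genes). Their median log2 difference was -1.30, at -0.56 on EnhDel replicate 1 and -2.00 on EnhDel replicate 2. Mki67, a marker of dividing cells, gave 9744 and 2571 on the EnhDel arrays and 12580 and 20230 on the control arrays. Gins1, a replication gene, differed by -1.58 ± 0.43 and Aurkb, a mitotic kinase, by -1.16 ± 0.16 (SE). EnhDel replicate 2, which had the higher Slfn2 and Slfn9 signals of its pair, had the lower Mki67 signal. The control pair differed from this: replicate 2 had the higher signals of Slfn2, Slfn9 and Mki67. After scaling, Slfn2 was slightly lower there, at 1.05 beside 1.10, and so was the dimmer Slfn9 probe, at -1.13 beside -1.07. With 4 arrays no relation between these genes can be tested.

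Markers of other cell types were read beside these results, as the sum over a list of the linear signals that were above background, in units of the array's 75th percentile. The gated stage itself was present: Dntt, Il7r, Ebf1, Cd79a and Igll1 were above background on all 4 arrays, while Pax5 was on control replicate 2 alone. The 12 preproB and B-cell genes summed to 106.7 and 84.8 on the EnhDel arrays and to 114 and 115 on the control arrays. The 9 plasmacytoid dendritic cell genes, whose cells also carry B220, were all above background everywhere and summed to 826 and 788 on the EnhDel arrays and to 829 and 736 on the control arrays. Bst2 stands in both this list and the interferon list.

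T cells express Schlafen genes, and a lineage gate is meant to remove them. Of 10 T-cell genes 9 were tested and 7 were higher (59.8% of all genes were), 4 of them at an unadjusted p under 0.05 in limma (7.23%). The sums were 33.2 and 40.2 on the EnhDel arrays against 22.8 and 20.5 on the control arrays. The gap between these sums rests largely on Cd4, the largest part of each. Cd4 gave 14430 and 28070 on the EnhDel arrays and 8914 and 8801 on the control arrays. Cd3g differed by 1.06 ± 0.14 and Cd4 by 1.29 ± 0.33 (SE), while Lck and Thy1 were at -0.49 and -0.36, and Trat1 was above background on EnhDel replicate 1 alone. The 7 NK-cell genes summed to 15.5 and 11.9 on the EnhDel arrays and to 15.9 and 13.9 on the control arrays.

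Monocytes and macrophages are a known source of Slfn4. Of their 11 genes 10 were tested, with 8 lower, 6 of them at an unadjusted p under 0.05 in limma (3.97% of all genes), and a median log2 difference of -1.98. Cx3cr1, a chemokine receptor, gave 169 and 73.0 on the EnhDel arrays and 2887 and 3447 on the control arrays (-4.72 ± 0.47 SE). Csf1r, the receptor for macrophage growth factor, differed by -1.63 ± 0.39, and Fn1 was above background on no EnhDel array. The list's sums of 61.1 and 69.7 on the EnhDel arrays and 76.9 and 68.4 on the control arrays rest mostly on Ly86, which differed by 0.03 ± 0.17. The 10 neutrophil genes on the array summed to 1.19 and 11.04 on the EnhDel arrays and to 20.2 and 24.2 on the control arrays, with Ltf and Ngp not above background on any array. The 6 erythroid genes summed to 2.19 and 3.84 on the EnhDel arrays and to 0.377 and 1.12 on the control arrays. On EnhDel replicate 2, where Slfn4 was measured, the monocyte and macrophage, neutrophil and erythroid sums were all higher than on EnhDel replicate 1. Single genes of these lists went the other way, among them Cx3cr1, Klf1 and Epor. The part of these cell types in the Schlafen values was not tested.

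The genes most like the Schlafen family over the 4 arrays were found by the Euclidean distance between centred log2 profiles, among 11532 genes that were above background on all arrays and had a RefSeq name, leaving out sex-linked genes and clone or accession names. The mean profile of the 5 tested members was 0.05 and 0.26 on the EnhDel arrays and -0.22 and -0.09 on the control arrays. The nearest genes were Tgfbrap1, Zscan2, Ficd, Abraxas2 and Lrrc36, at distances of 0.0207 to 0.024. With 4 points shared by all genes, likeness of this kind is a description.

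**Figure D4:**
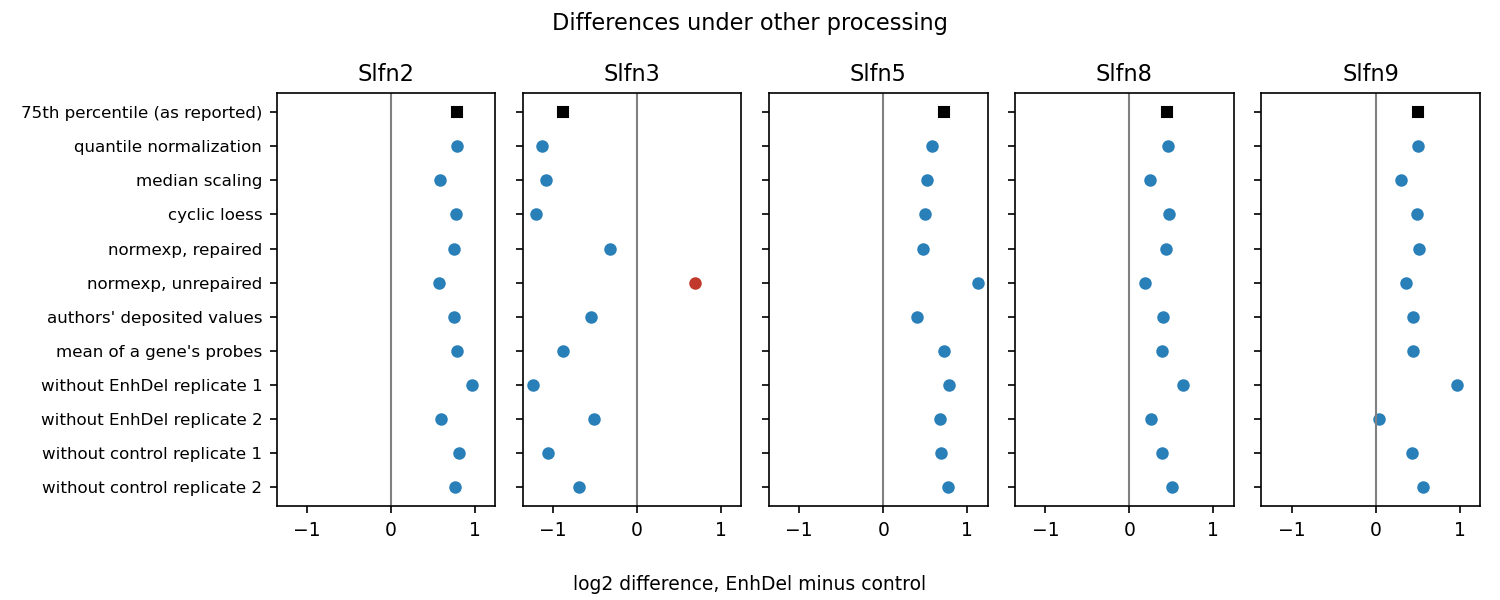
Log2 difference, EnhDel minus control, of the 5 tested Schlafen genes (one panel each) as reported (squares) and under other processing or with 1 array left out (circles). Slfn2, Slfn5, Slfn8 and Slfn9 stay above 0 in each setting shown, with Slfn9 at 0.04 without EnhDel replicate 2, and Slfn3 stays below 0 except at 0.69 with unrepaired normexp (red).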

How the data were processed

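RNA of 2 EnhDel and 2 control samples was amplified, labelled with Cy3 and hybridised to 1-colour arrays, per the labels' protocols. The deposited scanner files hold the intensity of 44397 spots per array from Agilent Feature Extraction 10.7.3.1, per the file headers, with a background-corrected processed signal and probe positions on mm9. The authors also deposited a table of 31597 rows of log2 values; how it was normalized is not given in the sources used here. Here, control spots and outlier-flagged spots (126 to 162 per array) were dropped. The log2 processed signal was set relative to each array's 75th percentile. Probes were named by accession through RefSeq GRCm38.p6 (26581 matched, 2892 updated), and a gene took its brightest probe. Genes that at least 1 group measured well above background on each of its arrays were tested with lmFit and eBayes in limma 3.58.1 (R 4.3.3), with Benjamini-Hochberg adjustment over all 19387 genes and a threshold of 0.05. The fit was tested on simulated data. The named genes were all members, other Slfn probes, the 4 tested members of each list with the smallest p and the 5 genes nearest in profile; genes named beyond these were chosen after their values were seen. Some genes that the rule takes or the lists hold are left out of the text. Members, lists and alternatives were chosen with earlier results of these data known.

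Replicate numbers do not pair the samples by any label, and the deviations of same-numbered samples correlated at -0.02 over 2 pairs. Alternatives changed the background correction, normalization, filter, probe summary, variance model, replicate block or arrays used.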

Additional observations from a re-analysis of the deposited data

How the results depend on the processing

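No gene passed the adjusted threshold in limma as reported, where 2171 had an unadjusted p under 0.05. With median scaling 23 genes passed and with the mean of a gene's probes 2 did. With 1 array left out between 1 and 2946 passed, the highest without EnhDel replicate 1, when Slfn2, Slfn3, Slfn5 and Slfn9 passed as well. The median log2 difference of the 5 tested Schlafen genes was 0.26 to 0.78 over 16 alternatives and that of the interferon-stimulated genes 0.49 to 0.97. Slfn3 reversed to 0.69 with unrepaired normexp, in which 6 spots of EnhDel replicate 1 had a local background of up to 10214; it was -0.32 once these were repaired. Median scaling moved the median of all genes to -0.13 and unrepaired normexp moved it to 0.19, against 0.07 as reported; with median scaling Slfn2 stood at 0.58, Slfn5 at 0.53, Slfn8 at 0.25 and Slfn9 at 0.30. With the replicate number as a block, no gene passed, 1941 had an unadjusted p under 0.05 and the Schlafen median was 0.50; the numbers do not pair these samples. An unadjusted p under 0.05 in limma was found in 1204 genes with unrepaired normexp. A level below the lowest signal well above background (12.2 to 14.4) could not be measured, which left Slfn1 and, on 3 of 4 arrays, Slfn4 without a value.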

Other observations

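Other Slfn-named probes outside the 7 genes were read as well. Slfn10-ps, a pseudogene within the cluster, gave 2051 and 2878 on the EnhDel arrays and 1688 and 2135 on the control arrays. Its signals overlapped between the groups and its normalized values did not, and the log2 difference was 0.46 ± 0.20 (SE, n = 2 each; adjusted p = 0.49 in limma). LOC640793, whose probe has no position in the files, gave 200 and 193 on the EnhDel arrays and 155 and 180 on the control arrays, a difference of 0.34 ± 0.16 (SE; adjusted p = 0.51 in limma). The probes of Slfn14 and of Slfnl1, a Schlafen-like gene on chromosome 4, were not well above background on any array.

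Among cytotoxic and erythroid genes, some were measured in EnhDel cells alone. Gzmb, the cytotoxic protease granzyme B, gave 68.3 and 237 on the EnhDel arrays and was not well above background on the control arrays (4.54 and 5.85). Klf1, the erythroid transcription factor, gave 41.1 and 17.7 on the EnhDel arrays and was likewise not above background on the control arrays (3.31 and 4.35). The interferon regulator Irf7 gave 3274 and 10130 on the EnhDel arrays and 2245 and 3251 on the control arrays, so its groups did not overlap by a small margin and EnhDel replicate 2 stood apart.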
